A study of Mus musculus with 66 samples.

Results

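The subunits of the cleavage and polyadenylation specificity factor (CPSF) and of cleavage factor I were followed as 10 genes, chosen by name from the machinery that forms mRNA 3' ends. They were Cpsf1, Cpsf2, Cpsf3, Cpsf4, Fip1l1, Wdr33 and the scaffold protein symplekin, which the tables list as Sympk, and the cleavage factor I genes Nudt21, Cpsf6 and Cpsf7. All 10 were found among the 15856 genes of the 3'READS table, where they held 45 of 59578 pA sites, and 5 of them (Cpsf1, Cpsf3, Cpsf7, Sympk and Wdr33) among the 9999 genes of the RNA-seq table. The other 5 were not analysed in RNA-seq. The libraries came from mouse myoblasts of the C2C12 line that received 50 nM siRNA for 48 h. The siRNA was a control (siCtrl) or targeted Paf1 (siPaf1), Cdc73 (siCdc73) or Ski8 (siSki8, gene symbol Wdr61), all subunits of the Paf1 complex (Paf1C). Each target was depleted transiently with a single siRNA sequence, so that effects of the siRNA apart from its target cannot be told apart from those of the depletion. Each assay had 7 libraries: siCtrl, siPaf1 and siCdc73 in batch 1 and batch 2, and siSki8 in batch 2 only. The comparison asked whether depletion of a Paf1C subunit went with a change in the level or in the own pA site choice of the genes that encode the cleavage machinery.

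In the nucleus, CPSF recognizes the AAUAAA hexamer upstream of a pA site and cuts the RNA. Wdr33 and Cpsf4 contact the hexamer, Cpsf1 is the large scaffold that holds them, Fip1l1 binds U-rich RNA and the poly(A) polymerase, Cpsf3 is the endonuclease, Cpsf2 is its catalytically inactive partner, and symplekin bridges CPSF to the cleavage stimulation factor (CstF). Cleavage factor I is built from a Nudt21 dimer, which binds UGUA motifs, together with Cpsf6 or Cpsf7, and is known as a regulator of the choice between proximal and distal pA sites in 3'UTRs.

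Library totals ranged from 2796693 to 8160386 reads in RNA-seq and from 5302728 to 14340927 reads in 3'READS. Each targeted gene was lower in its own libraries: in RNA-seq, by log2 -2.36 for Paf1, -2.54 for Cdc73 and -4.09 for Wdr61 with the batch as a block. Paf1 was 107 and 160 CPM in siCtrl and 264 and 418 CPM in siCdc73. The siPaf1 library of batch 2 stood apart in 3'READS, with 271 genes (1.03% of its reads) more than 20-fold above every other library, and none of the 10 members was among them. Of the myoblast markers in 3'READS, Vim and Des were abundant, Myf5 was 7.95 to 36.8 CPM, and Myod1 was at or near 0, between 0 and 0.597 CPM. Myotube markers were also read in siCtrl: Myh3 at 53.6 and 48.1 CPM, Myog at 7.05 and 13.1 CPM and Acta1 at 7.95 and 20.0 CPM. Ckm (0.900 and 0.756 CPM) and Tnnt3 (1.35 and 4.16 CPM) were lower. With the block, 1 of the 4 myoblast markers tested in 3'READS, the adhesion gene Cdh15, fell after siPaf1 and after siCdc73. Of 5 myotube markers there, Acta1 and Tnnt3 rose after siPaf1, and Myh3 and Myog fell after siCdc73. In RNA-seq with the block, 4 myoblast and 2 myotube markers were tested: Cdh15 fell and Tnnt3 rose after both knock-downs, Des rose after siPaf1 and Myf5 rose after siCdc73. Their part in the results below was not tested. In bulk RNA, fewer cells of a type and less RNA per cell cannot be told apart. Nothing beyond the batch numbers says that libraries of a group came from separate cultures, so p-values measure the spread between these libraries.

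The sequence before the cut is shown for 9 of the 10 members, to show which of their sites bear the hexamer that CPSF itself recognizes. The sites of Wdr33 are given by position only. Each line gives the 30 bases of the mm9 genome that end at the pA position, 5' to 3' on the strand of the gene, with capitals marking AATAAA or ATTAAA. The windows are the most used site of 9 members, with a proximal site of Cpsf2, the first and last sites of Cpsf6 and the last site of Fip1l1.
Cpsf1, chr15:76426238-76426267, minus strand: tataaaacacaaagaaaacgatttctttca
Cpsf2, proximal, chr12:103242462-103242491, plus strand: gtgtgatttaATTAAAggttgtaaatggtt
Cpsf2, most used, chr12:103244606-103244635, plus strand: atttcgctaataAATAAAagatgctgagca
Cpsf3, chr12:21320667-21320696, plus strand: gttcttcaAATAAAataaccttagtttctc
Cpsf4, most used, chr5:145942881-145942910, plus strand: tatgaggttgATTAAAaagcttgtttttta
Fip1l1, most used, chr5:74992149-74992178, plus strand: agtgtgcatttttttgtgttaagttaaaaa
Fip1l1, last, chr5:74994786-74994815, plus strand: atcAATAAAaatgatcttgtgaaatattaa
Sympk, most used, chr7:19639937-19639966, plus strand: aaagagggcgtagctgcgccaggttagaaa
Nudt21, most used, chr8:96543298-96543327, minus strand: tcATTAAActctgaaaagtcttagagccga
Cpsf6, first, chr10:116786363-116786392, minus strand: ctgAATAAAgcaaatctgcataaatggtaa
Cpsf6, most used, chr10:116786086-116786115, minus strand: AATAAActgtttatggggctgatgtgtaaa
Cpsf6, last, chr10:116781725-116781754, minus strand: gtattgaaAATAAAaacaaagttttggtaa
Cpsf7, most used, chr19:10622116-10622145, plus strand: attgtgtAATAAActtgatgacgatgtcaa

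The hexamers were searched on the strand of the gene in the 40 bases before each pA position. Over the 34 member sites in the 3'-most exon, 17 (50.0%) had AATAAA and 22 (64.7%) had AATAAA or ATTAAA, against 43.3% and 58.6% of all 38550 such sites in the table. Among sites with at least 5% of the reads of a gene, 16 of 22 member sites (72.7%) and 69.7% of all 25805 had one of these hexamers. The only site of Cpsf1 had none in this window, nor did the most used site of Wdr33. The most used sites of Fip1l1 and Sympk had AATAAA starting 35 and 33 bases upstream. The hexamer of Fip1l1 lies outside the printed window and that of Sympk only partly inside it, so neither is marked. TGTA, the DNA form of the motif that Nudt21 binds, was searched in the 100 bases before the site and was present at 23 of 34 member sites (67.6%) and at 53.0% of all 3'-most exon sites. The most used site of Cpsf6 had 4 copies and the most used site of Cpsf2 had 0. A match is a description of the letters and no test of binding.

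In the control cells, the members covered a wide range of 3' end levels. TMM-scaled counts per library total (CPM) in 3'READS, given as the mean ± SD of the 2 siCtrl libraries, were 417 ± 246 for Cpsf7, 202 ± 63.9 for Cpsf2, 135 ± 30.5 for Wdr33, 82.8 ± 7.62 for Cpsf1, 50.2 ± 12.8 for Cpsf3, 48.8 ± 8.20 for Cpsf6, 32.9 ± 4.57 for Fip1l1, 8.09 ± 1.26 for Cpsf4, 7.14 ± 3.69 for Sympk and 1.96 ± 0.438 for Nudt21. In this order, the ranges of Cpsf7 and Cpsf2, of Cpsf3 and Cpsf6, and of Cpsf4 and Sympk overlapped, and the ranges of the other neighbours did not. Nudt21, the RNA-binding core of cleavage factor I, held between 0 and 24 reads per library, so that changes of this gene were hardly detectable at this depth. Per length in RNA-seq, the siCtrl RPKM was 45.9 ± 20.0 for Cpsf7, 40.5 ± 5.53 for Sympk, 33.4 ± 9.26 for Cpsf3, 28.7 ± 5.21 for Cpsf1 and 21.0 ± 0.386 for Wdr33. By these means, Sympk was next to the highest of the 5 genes per length in RNA-seq and the lowest of the same 5 in 3'READS. The siCtrl RPKM values of Sympk (36.6 and 44.4) overlapped those of Cpsf7 (60.0 and 31.7) and of Cpsf3 (26.8 and 39.9).

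**Figure D1:**
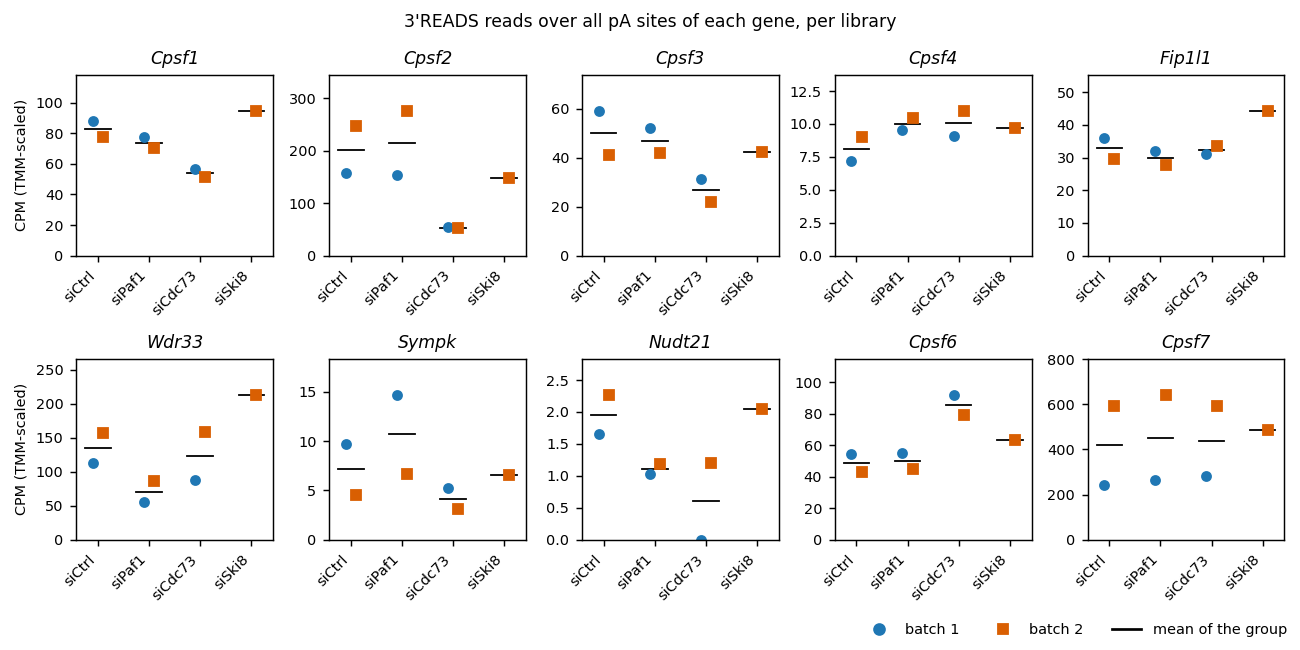
Level of the 10 members in 3'READS, 1 panel per gene, with TMM-scaled CPM on the y axis and the groups siCtrl, siPaf1, siCdc73 and siSki8 on the x axis. Each point is 1 library, marked by batch, lines are group means, and Cpsf2 in siCdc73 lies at 53.8 and 51.7 CPM, below all 5 other libraries (148 to 276 CPM).

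Levels were compared by edgeR's quasi-likelihood test over all genes, with and without the batch as a block. Log2 changes and adjusted p-values below are from the blocked fit unless stated otherwise. Without the block, 0 of 10 members in 3'READS passed an adjusted p of 0.05 in any comparison, and 0% of the 12579 genes tested passed after siPaf1, siCdc73 or siSki8 or between siCdc73 and siPaf1. In these 4 comparisons 0, 1, 0 and 1 members had an unadjusted p under 0.05, against 1703, 1929, 419 and 1298 of all 12579 genes. DESeq2 without the block called 0, 1, 0 and 1 members, each time Cpsf2. In RNA-seq 0 of 5 members and 0% of 6521 genes passed without the block in the same comparisons, and DESeq2 called 0 members. There, 0, 1, 0 and 0 members had an unadjusted p under 0.05 (Cpsf3 after siCdc73), against 1156, 1377, 361 and 859 of all genes. With the block, members passed as follows in 3'READS: 1 of 10 after siPaf1, where 18.8% of all genes passed, 3 of 10 after siCdc73, where 22.5% passed, 0 of 10 after siSki8, where 0.151% passed, and 2 of 10 between siCdc73 and siPaf1, where 14.4% passed. In RNA-seq, 1 of 5 members passed after siPaf1 with the block, against 32.5% of all genes, 1 of 5 after siCdc73, against 39.9%, 0 of 5 after siSki8, against 5.43%, and 3 of 5 between siCdc73 and siPaf1, against 28.2%. After siSki8, 0 members in either assay had an unadjusted p under 0.05 in the blocked fit. Over all genes there were 1464 of 12579 in 3'READS and 1342 of 6521 in RNA-seq. The median log2 change of the members with the block was -0.39 after siCdc73 and -0.02 after siPaf1 in 3'READS, where the medians over all genes were -0.02 and 0.08. After siSki8 it was 0.21 against -0.06 over all genes, from 1 library.

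Cpsf2 (CPSF100), the inactive partner of the endonuclease, showed the largest change in level among the 10 members. It was 157 and 247 CPM in siCtrl, 154 and 276 CPM in siPaf1, 53.8 and 51.7 CPM in siCdc73 and 148 CPM in siSki8. Both siCdc73 libraries were thus below all 5 others. Cpsf2 fell by 1.88 on the log2 scale after siCdc73 (SE 0.30, adjusted p = 0.000517 in the blocked fit and 0.166 without the block), which is a level 3.69 times lower. The change was -1.54 within batch 1 and -2.25 within batch 2, and the call held in 6 of 6 fits with 1 library left out (-2.30 to -1.51). After siPaf1 the log2 change was 0.07 (SE 0.29, adjusted p = 0.883), and after siSki8 it was -0.66 (SE 0.38, adjusted p = 0.546). Cpsf2 was also lower in siCdc73 than in siPaf1, by -1.96 (SE 0.30, adjusted p = 0.000662, called in 6 of 6 fits with 1 library left out). Both differences use the same siCdc73 libraries.

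Cpsf3 (CPSF73), the endonuclease that cuts the pre-mRNA, was measured by both assays. In RNA-seq it was 137 and 215 CPM in siCtrl, 98.4 and 153 CPM in siPaf1, 59.1 and 93.5 CPM in siCdc73 and 267 CPM in siSki8. In 3'READS it was 59.3 and 41.2 CPM in siCtrl, 52.1 and 41.9 CPM in siPaf1, 31.5 and 21.9 CPM in siCdc73 and 42.2 CPM in siSki8. In both assays the siCdc73 libraries were below both siCtrl libraries. Cpsf3 fell by 1.20 after siCdc73 in RNA-seq (SE 0.23, adjusted p = 0.000142 with the block, called in 6 of 6 fits with 1 library left out) and by 0.91 in 3'READS (SE 0.28, adjusted p = 0.0261). The 3'READS call was lost when any of the siCtrl or siCdc73 libraries was left out, with values between -0.96 and -0.86. The within-batch changes were -1.21 and -1.20 in RNA-seq and -0.91 and -0.90 in 3'READS. After siPaf1 the RNA-seq change was -0.48 (SE 0.23, adjusted p = 0.106), and the difference between siCdc73 and siPaf1 was -0.72 (SE 0.23, adjusted p = 0.0213), which was not called without siCdc73 of batch 1 or of batch 2 (adjusted p = 0.213 and 0.245). Whether both assays used the same RNA is not stated in the sources used here.

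Cpsf1 (CPSF160), the scaffold of the hexamer-binding module, had values of the same sign that did not pass. It was 270 and 370 CPM in siCtrl and 179 and 264 CPM in siCdc73 in RNA-seq, and 88.2 and 77.4 CPM against 56.5 and 51.4 CPM in 3'READS. The log2 change after siCdc73 was -0.54 in RNA-seq (SE 0.22, adjusted p = 0.0523) and -0.62 in 3'READS (SE 0.27, adjusted p = 0.110), both with the block. Scaling by library size alone gave an adjusted p = 0.0110 in RNA-seq, in a comparison where this scaling moves the median of all genes by -0.16. After siPaf1, the log2 value of Cpsf1 was 0.03 in RNA-seq and -0.16 in 3'READS, neither of which passed (adjusted p = 0.936 and 0.710).

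**Figure D2:**
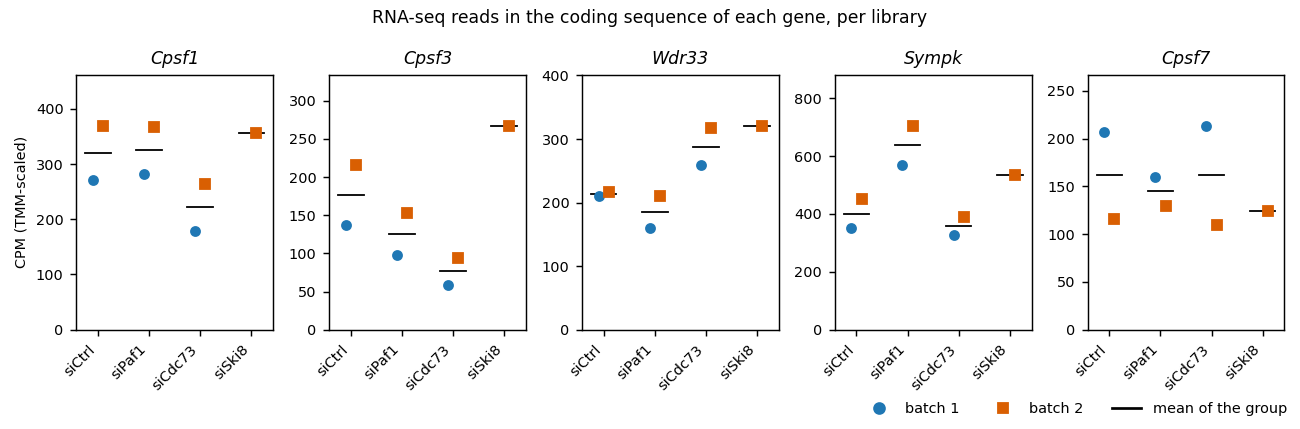
Level of the 5 members in RNA-seq, 1 panel per gene, with TMM-scaled CPM on the y axis and the 4 groups on the x axis. Each point is 1 library, marked by batch, lines are group means, and Sympk in siPaf1 (568 and 705 CPM) lies above both siCtrl libraries (351 and 451 CPM).

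Symplekin differed between the knock-downs. In RNA-seq, Sympk was 351 and 451 CPM in siCtrl, 568 and 705 CPM in siPaf1, 326 and 389 CPM in siCdc73 and 535 CPM in siSki8, so that both siPaf1 libraries were above the 5 others. Sympk rose by 0.67 after siPaf1 with the block (SE 0.22, adjusted p = 0.0185), by 0.69 within batch 1 and 0.65 within batch 2. This call held in 2 of 6 fits with 1 library left out: it was lost without either siCtrl library (adjusted p = 0.145 and 0.137) and without either siCdc73 library (adjusted p = 0.0509 and 0.0613), while the value stayed between 0.65 and 0.70. In 3'READS its 24 to 114 reads per library gave 9.75 and 4.54 CPM in siCtrl, 14.7 and 6.68 CPM in siPaf1 and 5.21 and 3.12 CPM in siCdc73. The siCtrl range overlapped those of siPaf1 and siCdc73, and both siPaf1 libraries were above both siCdc73 libraries. After siCdc73 the change was -0.16 (SE 0.22, adjusted p = 0.586) in RNA-seq and -0.68 (SE 0.40, adjusted p = 0.223) in 3'READS. The difference between siCdc73 and siPaf1 passed in both assays, with -0.83 in RNA-seq (SE 0.22, adjusted p = 0.00572) and -1.24 in 3'READS (SE 0.39, adjusted p = 0.0400). It was not called in RNA-seq without either siCdc73 library (adjusted p = 0.112 and 0.204), nor in 3'READS without any of the siPaf1 or siCdc73 libraries (adjusted p between 0.0705 and 0.218), and DESeq2 with the block did not call it in 3'READS (adjusted p = 0.113).

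Wdr33, the subunit that contacts the hexamer, fell in 3'READS after siPaf1. It was 113 and 156 CPM in siCtrl, 54.7 and 86.7 CPM in siPaf1, 87.7 and 159 CPM in siCdc73 and 213 CPM in siSki8. Both siPaf1 libraries were below all 5 others. The change after siPaf1 was -0.95 with the block (SE 0.27, adjusted p = 0.0216), with -1.05 within batch 1 and -0.85 within batch 2, and it was not called without siCtrl of batch 1 (adjusted p = 0.193) or of batch 2 (adjusted p = 0.0938). In RNA-seq Wdr33 was 211 and 217 CPM in siCtrl, 161 and 210 CPM in siPaf1, 259 and 317 CPM in siCdc73 and 321 CPM in siSki8. The RNA-seq changes of Wdr33 from siCtrl did not pass, and its level was higher in siCdc73 than in siPaf1 by 0.64 (SE 0.23, adjusted p = 0.0348). That call was lost without siCtrl of batch 2, siPaf1 of batch 1 or either siCdc73 library (adjusted p between 0.0506 and 0.338), and also with library size alone. The RNA-seq value rests on the RefSeq transcript with the most reads, and 3 other Wdr33 transcripts in the table, with 171 to 592 reads per library, share reads with it.

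The smaller CPSF subunits gave no call in level. Cpsf4 (CPSF30), a zinc finger protein that contacts the hexamer, was 7.20 and 8.98 CPM in siCtrl and between 9.12 and 11.0 CPM in the other 5 libraries, from 42 to 158 reads. With the block its log2 changes were 0.30 after siPaf1, 0.31 after siCdc73 and 0.14 after siSki8 (adjusted p = 0.575, 0.569 and 0.969). Fip1l1, which binds U-rich RNA and the polymerase, was 36.2 and 29.7 CPM in siCtrl, 31.9 and 27.8 CPM in siPaf1, 31.3 and 33.6 CPM in siCdc73 and 44.4 CPM in siSki8. Its changes were -0.14, -0.01 and 0.50 (adjusted p = 0.767, 1 and 0.660).

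Within cleavage factor I, Cpsf6 (CFIm68) rose after siCdc73. It was 54.6 and 43.0 CPM in siCtrl, 55.2 and 45.1 CPM in siPaf1, 92.1 and 79.4 CPM in siCdc73 and 63.6 CPM in siSki8, so that both siCdc73 libraries were above the 5 others. The change was 0.82 with the block (SE 0.27, adjusted p = 0.0374), 0.75 within batch 1 and 0.88 within batch 2. The call was lost when any of the siCtrl or siCdc73 libraries was left out (0.75 to 0.87, adjusted p between 0.138 and 0.276) and with library size alone (adjusted p = 0.0678). Cpsf7 (CFIm59), the other large subunit, differed mainly between batches, and in opposite directions in the assays. In 3'READS it was 243, 263 and 280 CPM in the siCtrl, siPaf1 and siCdc73 libraries of batch 1 and 592, 642 and 591 CPM in those of batch 2. In RNA-seq it was 207, 160 and 214 CPM in batch 1 and 116, 130 and 110 CPM in batch 2. With the block, the log2 changes of Cpsf7 lay between -0.25 and 0.11 in both assays over the 3 knock-downs, and none passed. The 3' end of Cpsf7 overlaps Tmem216 on the opposite strand in the mm9 annotation. Those of Cpsf1 and Fip1l1 likewise overlap Adck5 and Lnx1, and any part of these overlaps in the levels was not tested. Nudt21 had 11 and 24 reads in siCtrl, 8 and 18 in siPaf1, 0 and 17 in siCdc73 and 18 in siSki8. The 0 in the shallowest library allows up to 3 reads, and no change of Nudt21 passed.

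**Figure D3:**
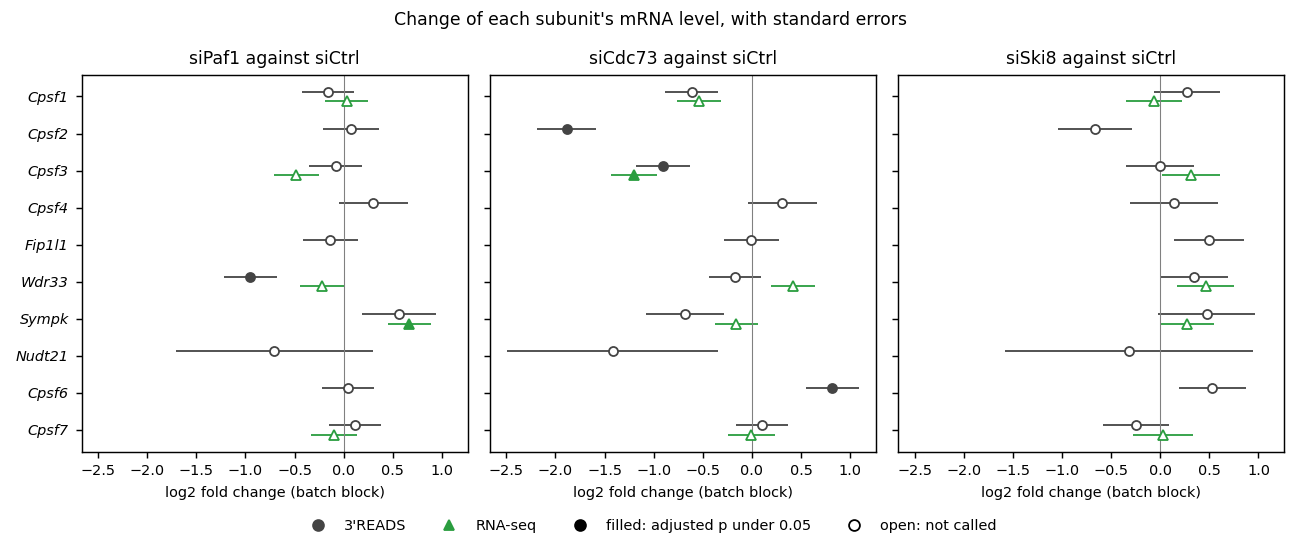
Log2 fold change of each member against siCtrl with the batch as a block, 1 panel per knock-down, for 3'READS and RNA-seq, with bars of 1 SE and filled points for an adjusted p under 0.05. The filled points are Wdr33 (3'READS) and Sympk (RNA-seq) after siPaf1 and Cpsf2, Cpsf3 and Cpsf6 (3'READS) and Cpsf3 (RNA-seq) after siCdc73.

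The own pA sites of the members were next compared. The 45 sites comprised 34 of the 3'-most exon, 10 intronic sites and 1 site of an internal exon, and 0 of the 3295 upstream antisense sites in the table belonged to a member. Cpsf1 and Cpsf3 had 1 site each, and intronic sites were listed for Nudt21, Sympk and Wdr33. For 3'UTR-APA, the 2 sites with the most reads in the 3'-most exon were set against each other, and a positive log2 value means more reads at the proximal site. Without the block, 0 of the 5 members tested passed after siPaf1, siCdc73 or siSki8, with 0% of 4567 genes passing in each. There, 0 members were below 0.05 in the unadjusted p, against 229, 192 and 58 of all genes. In the blocked fit 0 of 5 passed, against 6.79% of genes after siPaf1, 4.27% after siCdc73 and 0.307% after siSki8. An unadjusted p under 0.05 was found for 1, 1 and 0 members, against 810, 674 and 345 of the 4567 genes. The median log2 value of the 5 members with the block was 0.58, 0.42 and 0.35 after siPaf1, siCdc73 and siSki8, and the median over all genes was 0.27, 0.38 and 0.37.

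Wdr33 had the most sites, 10 in all. Its gene spans chr18:31963711-32068641 in mm9, and the most used site, at position 32067026 in exon 22 of 22, took 64.2% and 68.0% of its reads in siCtrl, 39.6% and 48.6% in siPaf1, 39.1% and 51.4% in siCdc73 and 71.1% in siSki8. The 95% Wilson intervals, which cover counting error only, were 60.8% to 67.6% and 65.7% to 70.2% in siCtrl and reached no higher than 53.5% in siPaf1 and siCdc73. As a single site against all other reads of the gene, its log2 value was -1.30 after siPaf1 and -1.23 after siCdc73 with the block, which did not pass (adjusted p = 0.100 and 0.129). The pair compared for 3'UTR-APA, 25 bases apart, gave -1.24 after siPaf1 (adjusted p = 0.105), toward the distal site. That distal site, at 32067051, took 6.93% to 15.7% of the reads per library, and the sites at 32066951 and 32066910 took 5.01% to 10.9% and 1.63% to 5.94%.

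Upstream sites of Wdr33 took a larger share in the libraries of siPaf1 and siCdc73. They lie in intron 6 (positions 31993742 and 31994174), in the coding part of exon 7 (31995084) and in intron 7 (32029242), all before the 3'-most exon. Together they held 10.6% and 15.7% of the reads in siCtrl, 16.7% and 26.4% in siPaf1, 21.8% and 23.4% in siCdc73 and 8.65% in siSki8. The Wilson intervals were 8.60% to 13.0% and 14.0% to 17.6% in siCtrl, 13.5% to 20.6% and 24.1% to 28.9% in siPaf1, and 18.0% to 26.1% and 21.7% to 25.2% in siCdc73. All 4 of these siPaf1 and siCdc73 values were above both siCtrl values, while the difference between batch 1 and batch 2 of siPaf1 was larger than that between siPaf1 and siCtrl of batch 1. For CDS-APA, upstream reads were compared with reads of the 3'-most exon, using only sites that reached the minimum share of the reads of a gene. A positive value means more upstream reads. Of the upstream sites of Wdr33, only 31993742 was kept, with 9.17% of the pooled reads of the gene. The sites at 31994174, 31995084 and 32029242 held 3.45%, 3.82% and 1.24% and were left out. Without the block, 0 of the 2 members tested (Wdr33 and Sympk) passed, and 2.38%, 4.13% and 0% of 1766 genes passed after siPaf1, siCdc73 and siSki8. Neither member had an unadjusted p under 0.05 there, against 359, 355 and 33 of all genes. With the block, 1 of 2 passed after siPaf1, against 23% of genes, 0 of 2 after siCdc73, against 23.2%, and 0 of 2 after siSki8, against 0.113%. With 31993742 as its only upstream site, the value of Wdr33 was 1.46 after siPaf1 (SE 0.56, adjusted p = 0.0402) and 0.95 after siCdc73 (SE 0.57, adjusted p = 0.229). These values do not test the shares of all upstream sites together given above. The siPaf1 call was lost in each of the 6 fits with 1 library left out (adjusted p between 0.0602 and 0.265). In CPM, the 3'-most exon of Wdr33 held 101 and 132 in siCtrl and 45.6 and 63.8 in siPaf1. All upstream sites together held 12 and 24.6 in siCtrl and 9.16 and 22.9 in siPaf1. Their larger share after siPaf1 thus stood beside fewer reads at the 3' end and not beside more reads upstream. The tested site at 31993742 alone held 1.95 and 13.3 CPM in siCtrl and 2.58 and 14.2 CPM in siPaf1. In siCdc73 the upstream sites held 19.1 and 37.2 CPM and the 3'-most exon 68.6 and 122 CPM.

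A site far downstream of Wdr33 gave the only single-site call among the members. Position 32071132 lies 4106 bases past the most used site, outside the annotated Wdr33 transcripts and opposite Sft2d3, a gene on the other strand. It held 5 and 2 reads in siCtrl, 29 and 34 in siPaf1, 19 and 8 in siCdc73 and 2 in siSki8. As shares of the reads of Wdr33 these were 0.662% (95% Wilson interval 0.283% to 1.54%) and 0.121% (0.0332% to 0.440%) in siCtrl and 6.84% (4.80% to 9.65%) and 2.60% (1.86% to 3.60%) in siPaf1. Both siPaf1 values were above both siCtrl values, with intervals that did not overlap. These intervals cover counting error only, and those of the siPaf1 libraries did not overlap each other either. The site changed by 3.40 against the other reads of the gene after siPaf1 (SE 0.72, adjusted p = 0.00116 with the block and 0.526 without it), and was called in 6 of 6 fits with 1 library left out (2.75 to 4.23). After siCdc73 it took 4.70% (3.03% to 7.23%) in batch 1 and 0.358% (0.181% to 0.704%) in batch 2, a log2 value of 1.88 that did not pass (SE 0.78, adjusted p = 0.0836). Over the single sites, 0 of 29 member sites and 0% of 20152 sites passed after any knock-down without the block. There, 1, 0 and 1 member sites were below 0.05 in the unadjusted p, against 1646, 1631 and 317 of all sites. In the blocked fit 1 of 29 passed after siPaf1, against 6.13% of sites, 0 after siCdc73, against 5.84%, and 0 after siSki8, against 0.00992%. The unadjusted p was under 0.05 at 6, 10 and 6 of the 29 member sites after siPaf1, siCdc73 and siSki8. Over all 20152 sites it was so at 3869, 3616 and 1147. Sites of 1 gene share reads and are not independent.

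**Figure D4:**
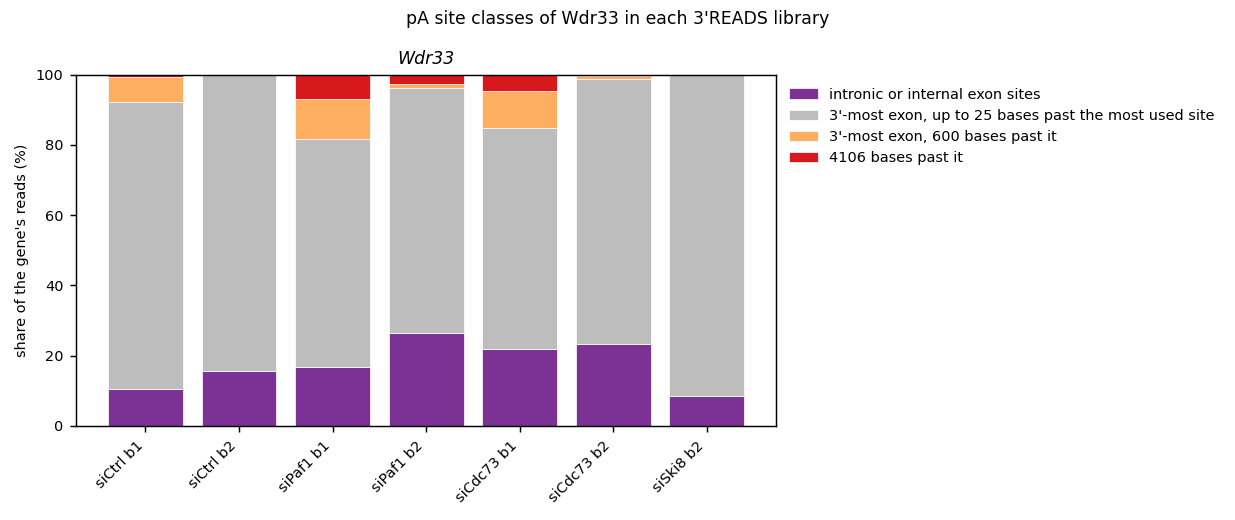
Stacked bars of the share of Wdr33 reads in 4 classes of pA site, with percent of the reads of the gene on the y axis and the 7 3'READS libraries (b1 and b2 for the batch) on the x axis. The class 4106 bases past the most used site makes up 0.662% and 0.121% in siCtrl and 6.84% and 2.60% in siPaf1, and the class of upstream sites is larger in siPaf1 and siCdc73 than in siCtrl.

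Another Wdr33 site followed the batch. Position 32067626, 600 bases past the most used site, took 7.28% in siCtrl, 11.6% in siPaf1 and 10.6% in siCdc73 of batch 1. In batch 2 it took 0 of 1654 reads in siCtrl, which allows a share of up to 0.181%, and 1.37%, 1.03% and 0.107% in siPaf1, siCdc73 and siSki8. All batch 1 values were thus above all batch 2 values, whatever the siRNA.

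Cpsf2 used mostly its last site in every library, next to its change in level. The site at position 103244635, 2439 bases past the first one, took 93.4% and 94.3% of the reads in siCtrl, 89.3% and 91.8% in siPaf1, 89.5% and 85.3% in siCdc73 and 89.5% in siSki8. The siCtrl libraries were the highest, and all 5 knock-down values were below both of them, with Wilson intervals of 91.7% to 94.7% and 93.3% to 95.1% in siCtrl and 85.1% to 92.7% and 82.5% to 87.7% in siCdc73. The log2 value of proximal against distal use was 1.10 after siCdc73 (SE 0.48, adjusted p = 0.245) and 0.71 after siPaf1 (SE 0.45, adjusted p = 0.422) with the block, which did not pass. The 2 siCdc73 libraries held 248 and 728 Cpsf2 reads, against 1045 and 2614 in siCtrl.

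Cpsf6 spread its reads over 6 sites within 4638 bases of its 3'-most exon. The last site took 11.3% and 30.1% of its reads in siCtrl, 14.7% and 24.2% in siPaf1, 7.08% and 12.3% in siCdc73 and 8.94% in siSki8. The 95% Wilson intervals were 26.1% to 34.5% for siCtrl of batch 2 and 10.5% to 14.4% for siCdc73 of batch 2, and those of batch 1 overlapped (8.41% to 14.9% and 5.00% to 9.92%). Within each batch the siCdc73 share was below the siCtrl share, and the values of both groups overlapped across batches. The first site took 30.5%, 33.9% and 32.1% in siCtrl, siPaf1 and siCdc73 of batch 1 and 8.57%, 12.9%, 12.1% and 11.1% in siCtrl, siPaf1, siCdc73 and siSki8 of batch 2, and so followed the batch. Per library, the most used site took 20.9% to 42.2%, the site at 116785908 took 14.6% to 32.2% and the site at 116784342 took 2.80% to 11.4%. The log2 value of the last site was -1.20 after siCdc73 (SE 0.56, adjusted p = 0.244) and -1.83 after siSki8 (SE 0.72, adjusted p = 0.807), and neither passed. Weighted by reads, the mean distance of Cpsf6 3' ends from the first site was 834 and 1842 bases in siCtrl and 580 and 961 bases in siCdc73.

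Fip1l1 used 2 sites 46 bases apart and a last site 2637 bases past the first. The last site took 26.1% and 21.0% in siCtrl, 25.1% and 37.1% in siPaf1, 22.9% and 2.75% in siCdc73 and 4.62% in siSki8. The low values were those of siCdc73 and siSki8 in batch 2 (95% Wilson intervals 1.61% to 4.65% and 2.94% to 7.18%), while siCdc73 of batch 1 lay with siCtrl. With the block the log2 value of the last site was -1.56 after siCdc73 (SE 0.78, adjusted p = 0.254; 0.07 to -3.29 with 1 library left out) and -2.17 after siSki8 (SE 1.00, adjusted p = 0.861), which did not pass. Of the 2 neighbouring sites, 74992178 took 27.0% to 66.4% per library and 74992224 took 21.1% to 46.1%, while a site at 74993254 held 53 reads over all libraries, 22 of them in siCtrl and 26 in siPaf1 of batch 2. Cpsf7 took 97.3% of its pooled reads at 1 site, and Cpsf4 89.3%. The other Cpsf4 sites above 5% in some library, at 145942283, 145942314 and 145943335, held 8, 40 and 22 reads in all.

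**Figure D5:**
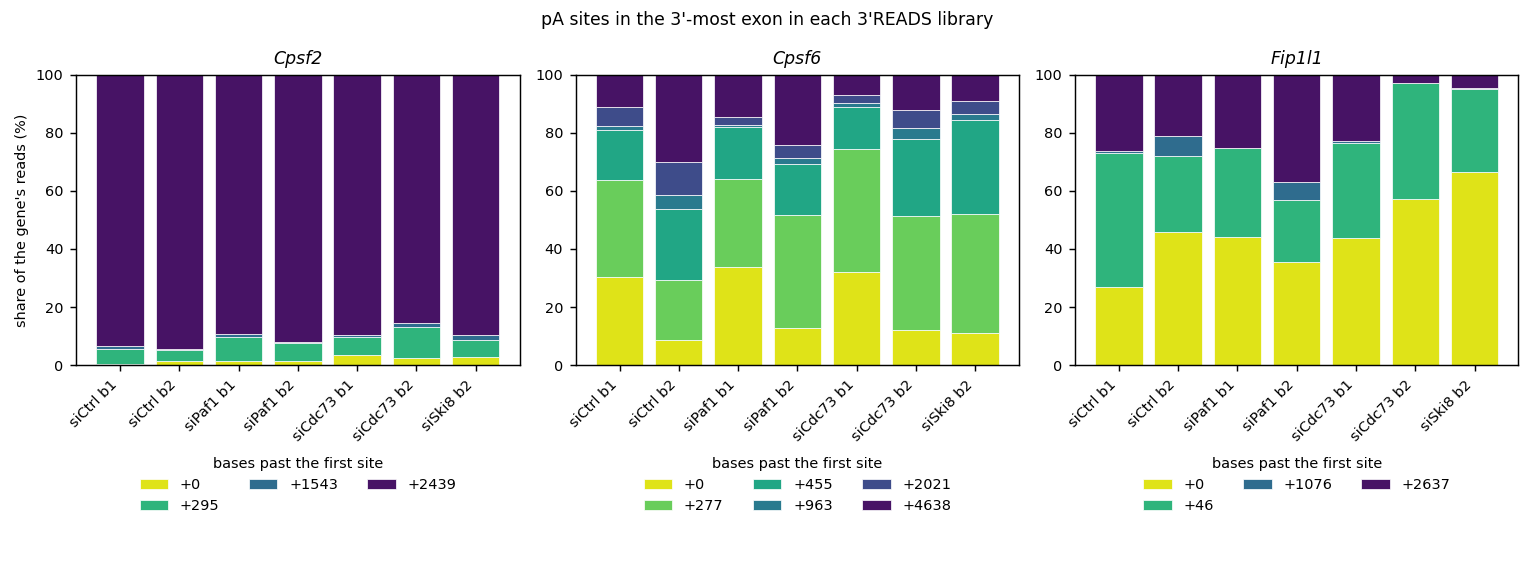
Stacked bars of the share of reads at each 3'-most exon site of Cpsf2, Cpsf6 and Fip1l1, with percent of the reads of the gene on the y axis, the 7 3'READS libraries on the x axis and colours for the distance from the first site in bases. The last site of Fip1l1, at 2637 bases, takes 2.75% and 4.62% in siCdc73 and siSki8 of batch 2 and 21.0% to 37.1% in the other 5 libraries.

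Sympk had 4 intronic sites with few reads, at 19616278, 19637101, 19639065 and 19639110. Together they held 7 of 65 and 18 of 48 reads in siCtrl, 3 of 114 and 8 of 101 in siPaf1, 5 of 24 and 2 of 44 in siCdc73 and 7 of 58 in siSki8. The siPaf1 shares, 2.63% (95% Wilson interval 0.899% to 7.45%) and 7.92% (4.07% to 14.9%), were below the siCtrl shares, 10.8% (5.32% to 20.6%) and 37.5% (25.2% to 51.6%). The CDS-APA test, with its minimum of 5%, kept only the intronic site at 19637101. That site held 0 and 11 reads in siCtrl and 0 and 8 in siPaf1 of batches 1 and 2. Its value after siPaf1 was -1.41 (SE 1.47, adjusted p = 0.373). The CDS-APA values of Wdr33 and Sympk, from the kept sites alone, had opposite signs after siPaf1. Their median was 0.03, against 0.61 over all genes tested. The 3 intronic sites of Nudt21, at 96546519, 96546559 and 96557217, held 3, 2 and 3 reads over all libraries, and its minor 3'-most exon sites at 96539119, 96539392, 96539457 and 96540847 held 11, 1, 6 and 3.

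The remaining factors of the cleavage and polyadenylation machinery were 13 genes: the CstF subunits Cstf1, Cstf2, Cstf2t and Cstf3, the cleavage factor II subunits Pcf11 and Clp1, the polymerases Papola and Papolg, and Pabpn1, Rbbp6, Ssu72, Ppp1ca and Ppp1cb. All 13 were tested in 3'READS and 8 in RNA-seq, and 0 passed without the block in either assay. With the block in 3'READS, 4 rose after siCdc73, namely Clp1 by 1.15, Cstf2t by 1.11, Ppp1cb by 1.79 and Rbbp6 by 1.46, and 1 fell, the phosphatase Ssu72, by 1.20. After siPaf1 3 rose, Cstf3 by 1.16, Ppp1cb by 1.54 and Rbbp6 by 1.08, and 0 fell. Over all genes in 3'READS, 22.5% passed after siCdc73 and 18.8% after siPaf1. In RNA-seq, Clp1 (1.08) and Cstf2t (1.06) rose and Papola (-0.94), Pcf11 (-0.79) and Ssu72 (-0.83) fell after siCdc73, Cstf2t rose (0.97) and Pcf11 fell (-1.13) after siPaf1, and Cstf3 rose (1.01) after siSki8. The shares of all genes that passed there were 39.9% after siCdc73, 32.5% after siPaf1 and 5.43% after siSki8. Fits with 1 library left out are not given for these factors. The median change of the 13 in 3'READS was 0.37 after siCdc73 and 0.03 after siPaf1, against -0.39 and -0.02 for the 10 CPSF and cleavage factor I genes. For CDS-APA 4 of the 13 were tested. Without the block 0 of the 4 passed after siPaf1 and 1, Rbbp6, after siCdc73 (adjusted p = 0.0499). With the block 3 of 4 passed after siPaf1 and 2 of 4 after siCdc73, against 23% and 23.2% of all genes tested. Pcf11 and Rbbp6 shifted to upstream sites by 2.28 and 4.30 after siPaf1 and by 2.60 and 4.27 after siCdc73, and Cstf3 did so after siPaf1 (2.51). The Integrator homologue of Cpsf3, listed as Cpsf3l, fell by 1.28 after siCdc73 in 3'READS (SE 0.32, adjusted p = 0.00831), and Ints9, the homologue of Cpsf2, did not pass in either assay.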

How the data were processed

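RNA-seq and 3'READS were made from C2C12 cells, with 7 libraries each. Per the labels and the study's methods, the authors removed rRNA, aligned strand-specific RNA-seq reads with bowtie2 (local alignment, mm9), and deposited counts of uniquely mapped reads in the coding part of each RefSeq transcript, together with RPKM. In 3'READS they deposited counts per pA site of uniquely mapped reads with at least 2 non-genomic T at the 5' end. The version of bowtie2 is not given in the sources used here. A read that maps to several places is lost from both tables. Libraries held 2796693 to 8160386 reads (RNA-seq) and 5302728 to 14340927 reads (3'READS), and intervals and floors (3 counts) cover counting error only.

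Genes were taken as the RefSeq transcript with the most reads (RNA-seq) or the sum of pA sites (3'READS). Counts were fitted over all features with edgeR 4.0.16 (quasi-likelihood, TMM, R 4.3.3) with Benjamini-Hochberg adjustment at 0.05. RPKM values were used only for levels between genes. The main fit had no batch term, and the study's methods name none. Because the labels give a batch number, a fit with the batch as a replicate block was also made. Counts of calls are given from both fits. Changes and adjusted p-values of single genes are from the blocked fit unless stated otherwise. Deviations of libraries of the same batch correlated at r = 0.620 to 0.748 over genes in RNA-seq and 0.432 to 0.610 in 3'READS, so the numbers paired the samples. The siSki8 group had 1 library, so its p-values assume the spread of the other groups. 3'UTR-APA and CDS-APA used sites with at least 5% of the reads of a gene and a mean of 20 reads over the isoforms compared, and single sites needed a mean of 5 reads in a gene with a mean of 20, with no minimum share. Both were fitted in edgeR with a term for each library and the isoform by group as the test. Alternatives were DESeq2 1.42.0, library-size scaling, other read minimums, summed transcripts, Fisher's exact test on pooled reads and leaving out each library. The members and lists were chosen with earlier results of these data known. The text names all 10 members, their sites with at least 5% of reads in some library or a call, and list genes called with the block. ChIP-seq samples were not used here.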

Additional observations from a re-analysis of the deposited data

Results flagged for a closer look

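In 5 cases the effect of siCdc73 differed from that of siPaf1, tested as the direct difference between these groups by edgeR's quasi-likelihood test with the batch as a block. The siCtrl libraries enter only the estimate of the spread and of the batch. Cpsf2 in 3'READS differed by -1.96 (SE 0.30, adjusted p = 0.000662). Sympk differed by -1.24 in 3'READS (SE 0.39, adjusted p = 0.0400) and by -0.83 in RNA-seq (SE 0.22, adjusted p = 0.00572), and DESeq2 with the block did not call the 3'READS difference (adjusted p = 0.113). Cpsf3 differed by -0.72 (SE 0.23, adjusted p = 0.0213) and Wdr33 by 0.64 (SE 0.23, adjusted p = 0.0348) in RNA-seq. Of these 5, the difference of Cpsf2 was called in 6 of 6 fits with 1 library left out and the others in 2 to 4 of 6.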

How the results depend on the processing

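The single values followed here were chosen from these same data. Level values were taken for genes and comparisons with an unadjusted p under 0.05 in the blocked edgeR fit of either assay. The rest were isoform values of Wdr33 and Cpsf2 and the single site called with the block. The alternatives refit the same libraries, so a kept direction is no independent support. Over 28 single values and 552 alternatives, 425 kept direction and side of the threshold, 120 kept direction and passed it where the fit without the block had not, and 7 changed sign. Those 7 were values after siPaf1 in 3'READS that had not passed. Cpsf3 became 0.018 (block, without siPaf1 replicate 1), 0.057 (without siPaf1 replicate 2), 0.19 (without siCtrl replicate 1), 0.015 (library size alone), 0.016 (pooled reads) and 0.021 (block with library size alone), and Sympk became -0.089 without siPaf1 replicate 1. With 1 library left out, Cpsf3 ranged from -0.34 to 0.19 and Sympk from -0.089 to 1.19. The cause was not tested.

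Without the block 0 members were called in each comparison. The replicate block gave 1 (siPaf1), 3 (siCdc73) and 2 (siCdc73 against siPaf1) in 3'READS and 1, 1 and 3 in RNA-seq, 1 for CDS-APA and 1 for single sites after siPaf1, and changed no other count. The block with DESeq2 gave 1, 3 and 4 (without Sympk) in 3'READS and 1, 1 and 3 in RNA-seq, and the block with library size alone 1, 2 and 3 in 3'READS and 1, 2 and 3 in RNA-seq. DESeq2 without the block called 1 after siCdc73 and 1 between siCdc73 and siPaf1 in 3'READS. The study's rule on pooled reads (over 1.4-fold, Fisher p under 0.01) called 2, 6, 3 and 6 in 3'READS (siPaf1, siCdc73, siSki8, siCdc73 against siPaf1), against 49.4%, 51.6%, 35.2% and 49.6% of all genes, and 2, 2, 1 and 4 in RNA-seq, against 46.3%, 52.8%, 47.8% and 44.8%. Pooled Fisher tests, which take no account of the spread between libraries, called 4, 3 and 2 of 5 for 3'UTR-APA (49.8%, 43.6% and 35.7% of all genes), 2 and 1 of 2 (siPaf1, siCdc73) for CDS-APA (58.6% and 55.7%) and 14, 19 and 19 of 29 single sites (48.2%, 44.2% and 27.4% of all sites). With the block, a minimum of 10 reads gave 1 for CDS-APA after siPaf1, and a minimum of 2 reads gave 1 single site after siPaf1 and 1 after siCdc73. With 1 library left out, with or without the block, counts ranged from 0 to 1 (siPaf1), 0 to 4 (siCdc73) and 0 to 2 (siCdc73 against siPaf1) in 3'READS, 0 to 1, 0 to 3 and 0 to 4 in RNA-seq, and 0 to 2 for single sites after siPaf1 and after siCdc73. The settings that join the block with library size or another read minimum were chosen after seeing the data.

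Library-size scaling moved the median of all genes by -0.16 (siCdc73), -0.18 (siCdc73 against siPaf1) and -0.33 (siSki8) in RNA-seq, where the share of higher genes among calls with the block went from 48.7% to 35.4%, from 48.3% to 28.7% and from 54.0% to 17.7%, and by -0.19 in 3'READS for siCdc73 against siPaf1, from 43.8% to 24.3%. Low reads of Nudt21, Sympk and Cpsf4 and 1 library of siSki8 limit what could be detected.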
